A study of Homo sapiens with 9 samples.

Results

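The genes described here encode the plasma membrane and lysosomal carriers that move amino acids and a few related small molecules in human oesophageal adenocarcinoma cells. They are the genes of the count table whose symbols begin with SLC1A, SLC3A, SLC6A, SLC7A, SLC36A, SLC38A or SLC43A and end in digits, apart from SLC38A1, SLC38A2 and SLC38A4, and they number 55 of 52158 genes. RNA was sequenced from 9 established cell lines, ESO-26, ESO-51, FLO-1, JH_EsoAd1, OAC_5.1_C, OACP4_C, OE19, OE33 and SK-GT-4, all grown untreated to near confluency. Every line gave 1 column of counts, so the values below are comparisons of 1 library with the other 8, and differences between lines carry neither a replicate error nor a p-value. Nothing in the labels describes a treated or a normal control.

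Amino acid carriers fall into families with distinct partners and substrates. The heteromeric carriers join a glycoprotein heavy chain, SLC3A1 or SLC3A2, to a light chain of the SLC7 family that does the transport. SLC7A5 brings in large neutral amino acids such as leucine, which signal to mTORC1, and SLC7A11 exchanges cystine for glutamate and so feeds glutathione synthesis. SLC1A5 exchanges glutamine and other neutral amino acids, and the remaining SLC1 genes include the high-affinity glutamate carriers. In tumour cells several of these genes are targets of ATF4, the transcription factor of the amino acid response.

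The libraries held between 16801179 counts (ESO-26) and 69881539 counts (FLO-1). Mitochondrial genes took 24.7% of counts in JH_EsoAd1 and 1.48% to 7.04% in the other lines. Levels are given as CPM, the usual count rate relative to library size, after TMM scaling, and differences as log2(CPM + 1) in a line minus the median of the other 8 lines, a scale that understates differences at low levels. Intervals are exact 95% Poisson intervals and cover counting error only, and a count of 0 allows a level of up to 3 counts, or 0.0400 CPM (FLO-1) to 0.173 CPM (ESO-26). Summed epithelial markers (EPCAM, CDH1, KRT8, KRT18, KRT19 and CLDN4) came to 163 CPM for ESO-26 and to 1204 CPM for OE33, against 3765 to 14377 CPM in the other 7 lines, with CDH1 at 0.173 CPM in ESO-26 and EPCAM at 0.189 CPM in OE33. Summed mesenchymal markers (VIM, FN1, COL1A1, COL1A2 and PDGFRB) were 3841 CPM for ESO-26 and 648 CPM for OE33, against 14.3 to 2425 CPM in the others, and haematopoietic markers summed to at most 1.96 CPM. The mesenchymal sum of ESO-26 was mostly FN1 (3591 CPM), with COL1A1 at 0.577 CPM and PDGFRB at 0. Summed endothelial markers (VWF and CDH5) were 30.2 CPM in JH_EsoAd1 and 8.40 CPM in FLO-1, mostly CDH5, against 0 to 4.22 CPM in the other 7 lines. ERBB2 was at 18325 CPM in the SK-GT-4 library but at 185 CPM in the OE19 library and 149 CPM in the OE33 library. OE19 is widely used as an ERBB2-amplified line, so the labels may be wrong. All libraries, OE33 included, are named here by their labels, and whether these match the lines was not tested. The part of these features in the results below was not tested.

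Of the 55 carrier genes, 35 reached 5 CPM in at least 1 line and 12 did so in every line. Another 7 peaked between 1 and 5 CPM. The remaining 13 stayed under 1 CPM in all 9 lines, among them SLC6A2, SLC6A5, SLC6A11, SLC6A13, SLC6A15, SLC6A17, SLC6A18, SLC7A3, SLC7A13, SLC36A2, SLC36A3 and SLC38A8. SLC7A13 had 0 counts throughout. The SLC6 family, which holds the carriers of neurotransmitters beside a few amino acid carriers, supplied 8 of these 13 and had 5 of its 18 genes at 5 CPM, whereas the SLC7 family had 11 of 13 and the SLC1 family 6 of 7.

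By deposited FPKM, the authors' value per gene length and library, the top gene of each family over the 9 lines was SLC7A5 for SLC7 (mean 57.6 FPKM), SLC1A5 for SLC1 (32.7 FPKM), SLC3A2 for SLC3 (13.2 FPKM), SLC6A8 for SLC6 (6.77 FPKM), SLC38A10 for SLC38 (5.51 FPKM), SLC43A1 for SLC43 (2.20 FPKM) and SLC36A4 for SLC36 (1.33 FPKM). These means pool libraries in which the 55 genes summed to 54.2 to 267 FPKM, so they set no order between families. SLC7A5 was the top carrier gene within 7 lines. SLC1A5 took that place in OE19 (81.1 FPKM) and SK-GT-4 (76.0 FPKM). FPKM values are not compared between lines here, except as shares of a sum within each library.

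A gene was called high in a line where its difference was at least 2 and its level at least 5 CPM, and low where its difference was at most -2 and the median of the other 8 lines was at least 5 CPM. By this rule 22 of the 35 carrier genes were high in at least 1 line, where 28.7% of all 14580 genes at 5 CPM in at least 1 line were, and 10 were low in at least 1 line, where 17.1% of all genes were. SLC7A2, SLC1A3, SLC1A1, SLC6A8, SLC43A1 and SLC36A4 were in both counts. Of the 35, 8 reached 5 CPM in a single line (SLC1A6, SLC3A1, SLC6A19, SLC7A4, SLC7A9, SLC7A10, SLC7A14 and SLC38A3), so that their place among the 22 follows largely from that minimum. The median range between the lowest and the highest line was 3.85 log2 units over the 35 carriers and 2.35 over all 14580 genes. Under a stricter rule, a gap of at least 2 log2 units to every other line, 10 carrier genes stood above all other lines in 1 line (7.45% of all genes) and 1, SLC7A11 in OE33, stood below all others (2.78% of all genes). The 8 genes at 5 CPM in a single line are among these 10, so that the minimum largely sets this count too, and the remaining 2 are SLC6A20 in OE19 and SLC7A7 in SK-GT-4. With a pseudocount of 5 the gaps of SLC1A6, SLC3A1, SLC6A19 and SLC7A10 were lost.

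**Figure D1:**
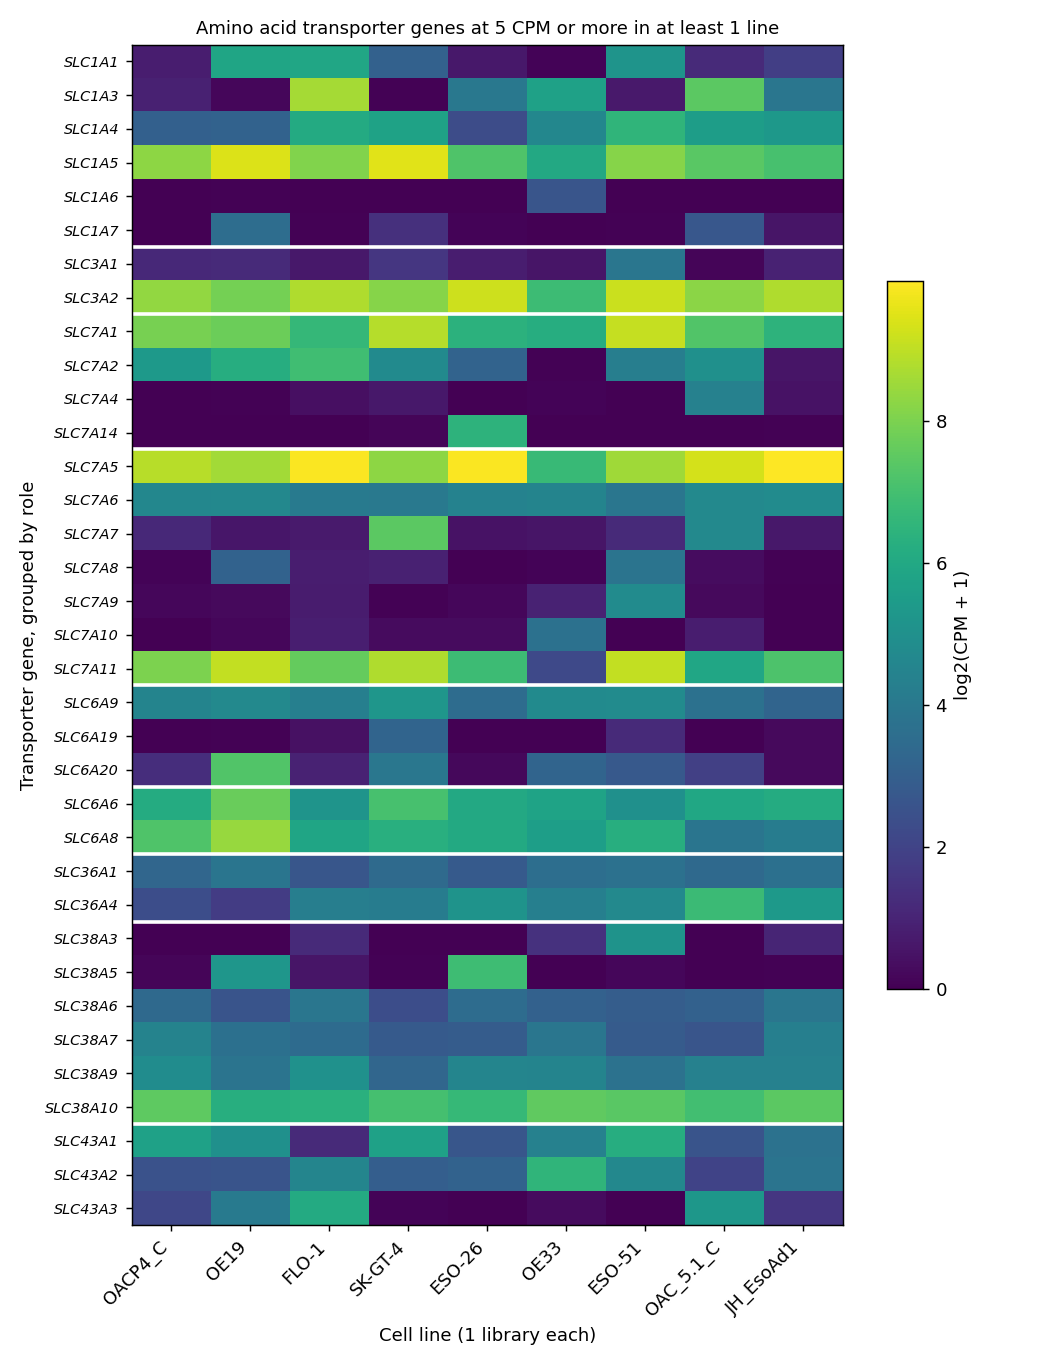
Level of the 35 carrier genes that reached 5 CPM in at least 1 line (rows, grouped by role, white lines between groups) in the 9 cell lines (columns), coloured by log2(CPM + 1), 1 library per line. SLC7A5 and SLC3A2 are lowest in OE33 (104 and 114 CPM), while SLC7A14, SLC7A9, SLC7A4, SLC38A3 and SLC1A6 are above 5 CPM in a single line.

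The heavy chain SLC3A2, which carries the light chains SLC7A5 to SLC7A8, SLC7A10 and SLC7A11 to the cell surface, was abundant in all lines. It stood at 114 CPM in OE33, against 238 CPM in OE19, 289 in SK-GT-4, 301 in OAC_5.1_C, 330 in OACP4_C, 438 in JH_EsoAd1, 442 in FLO-1, 572 in ESO-51 and 598 in ESO-26. OE33 was therefore the lowest line, at a difference of -1.73 that does not reach the 2 units of the rule. SLC7A5, the leucine and large neutral amino acid light chain, followed at 104 CPM in OE33 (interval 99.8 to 108), against 311 CPM in SK-GT-4, 373 in ESO-51, 389 in OE19, 480 in OACP4_C, 643 in OAC_5.1_C, 955 in FLO-1, 965 in ESO-26 and 1006 in JH_EsoAd1. Its difference in OE33 was -2.41, and the counting interval there did not reach the next line.

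SLC7A11, the cystine and glutamate exchanger, was the only carrier gene with such a gap below all other lines. OE33 held 95 counts or 3.58 CPM (interval 2.90 to 4.38), against 58.3 CPM in OAC_5.1_C, 114 in ESO-26, 145 in JH_EsoAd1, 194 in FLO-1, 254 in OACP4_C, 437 in SK-GT-4, 537 in OE19 and 538 in ESO-51. The difference in OE33 was -5.60 from the median of the others, and the gap to OAC_5.1_C was -3.69. SLC7A11-AS1, a transcript of the opposite strand that overlaps the gene, had 0 CPM in OE33 and 49.9 CPM in OACP4_C, with 0.144 to 8.91 CPM in the other 7 lines. The sources used here do not give the strand setting of the counting, so reads of the overlap cannot be told apart, although both deposited overlap rules gave SLC7A11 the same 89906 counts over the 9 lines. The order of the 2 transcripts over lines was not the same.

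The transcripts of the SLC3A2-dependent light chains were made up differently from line to line. SLC7A5 supplied 93.2% of their summed FPKM in ESO-26, 92.6% in OAC_5.1_C, 91.8% in JH_EsoAd1, 89.4% in FLO-1, 82.4% in OE33 and 76.4% in OACP4_C. In OE19, ESO-51 and SK-GT-4 its share was 56.0%, 55.1% and 49.8%, and SLC7A11 supplied 42.3%, 43.5% and 38.2% there. In the 3 lines where SLC7A11 was most abundant, the sum was thus divided mainly between leucine import and cystine import chains. OE33 differed from the others, with SLC7A11 at 1.56%, SLC7A10 at 9.65% and SLC7A6 at 6.17%, and in SK-GT-4 SLC7A7 made up 11.0%. These shares describe transcripts, and no protein was measured.

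**Figure D2:**
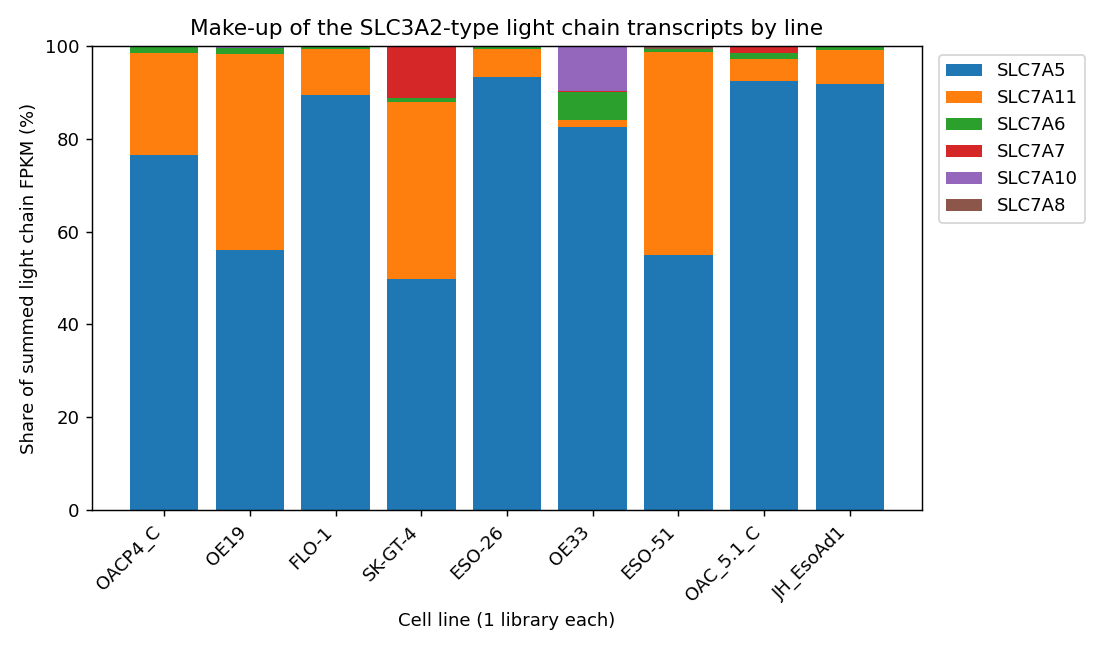
Share of each light chain gene in the summed FPKM of the 6 light chains that pair with SLC3A2 (vertical axis, percent) in the 9 lines (horizontal axis, 1 library each). The SLC7A11 share is 38.2% to 43.5% in OE19, SK-GT-4 and ESO-51 and 1.56% in OE33.

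Among the other light chains, SLC7A7 exports arginine and lysine in exchange for neutral amino acids and sodium at the basolateral side of absorptive epithelium. It reached 176 CPM in SK-GT-4 (interval 171 to 181) and 25.0 CPM in OAC_5.1_C, against 0.404 to 1.29 CPM in the other 7 lines. SLC7A8, a second carrier of neutral amino acids at that side, was at 13.4 CPM in ESO-51 and 7.80 CPM in OE19, against at most 0.868 CPM elsewhere. With a pseudocount of 5 both of its calls were lost (differences of 1.83 and 1.31). SLC7A10, which exchanges small neutral amino acids including D-serine, was at 12.1 CPM in OE33 (interval 10.8 to 13.5), against 0 to 0.787 CPM in the others, and its difference of 3.47 became 1.72 with a pseudocount of 5. LRP3, which overlaps SLC7A10 on the opposite strand, reached at most 51.2 CPM. SLC7A6, a light chain for cationic amino acids and glutamine, had the narrowest range of the 35 genes, from 13.9 CPM in ESO-51 to 27.0 CPM in JH_EsoAd1.

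SLC3A1 and SLC7A9 are the heavy and light chain of the carrier that takes up cystine and cationic amino acids in kidney and intestine, and mutations in either cause cystinuria. Both were called high in ESO-51 and in no other line, but with a pseudocount of 5 the difference of SLC3A1 became 1.70, no longer a call, while that of SLC7A9 was 2.63. SLC7A9 stood at 27.0 CPM in ESO-51 (1213 counts, interval 25.5 to 28.5), against 0 CPM in JH_EsoAd1, which allows up to 0.149 CPM, and 0.0322 to 0.943 CPM in the other 7 lines. SLC3A1 stood at 14.0 CPM in ESO-51 (interval 12.9 to 15.1), against 0.103 CPM in OAC_5.1_C to 2.03 CPM in SK-GT-4. Neither gene overlapped between ESO-51 and any other line, with gaps of 3.85 for SLC7A9 and 2.31 for SLC3A1. PREPL, the neighbour of SLC3A1 on the opposite strand, reached up to 116 CPM, and reads of their overlap cannot be told apart without the strand setting, although both deposited overlap rules gave SLC3A1 892 counts over the 9 lines. Per gene length, SLC7A9 was at 3.45 FPKM and SLC3A1 at 0.885 FPKM in ESO-51, against 22.5 FPKM for SLC3A2 in the same library.

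**Figure D3:**
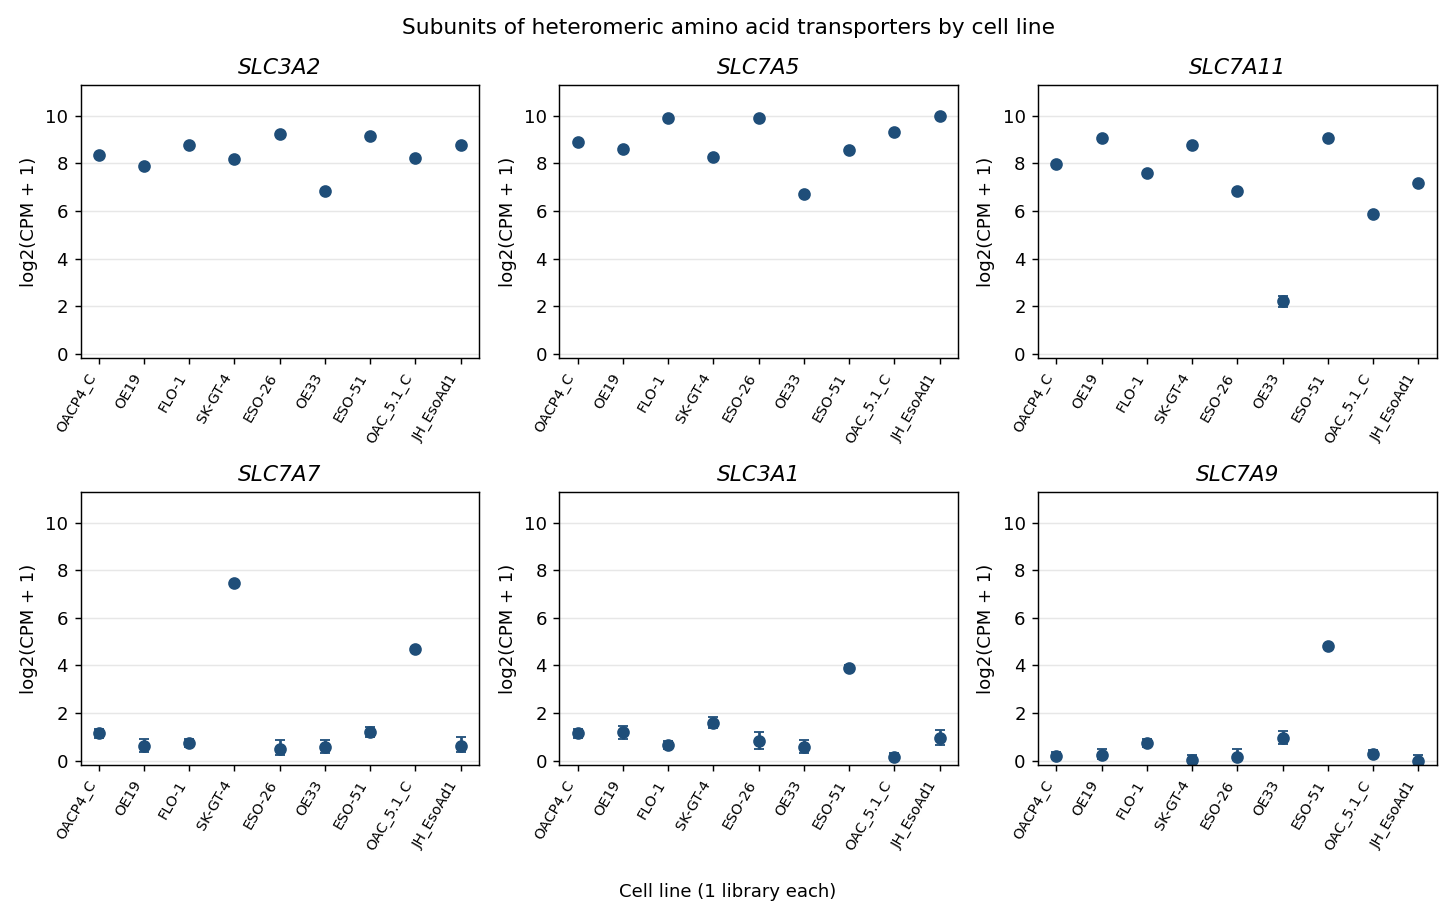
Level of 2 heavy chain genes (SLC3A2, SLC3A1) and 4 light chain genes (SLC7A5, SLC7A11, SLC7A7, SLC7A9) in the 9 lines, as log2(CPM + 1) on the vertical axis of each panel, with 1 library per line and bars for the exact 95% Poisson interval of the count. OE33 is the lowest point for SLC3A2, SLC7A5 and SLC7A11, and ESO-51 the highest for SLC3A1 (14.0 CPM) and SLC7A9 (27.0 CPM).

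SLC1A5, the glutamine exchanger, and SLC7A1, the broadly expressed importer of arginine and lysine, reached 5 CPM in every line like SLC3A2 and SLC7A5. SLC1A5 stood at 64.6 CPM in OE33 (interval 61.6 to 67.8), against 133 CPM in JH_EsoAd1, 149 in ESO-26, 168 in OAC_5.1_C, 267 in FLO-1, 285 in ESO-51, 310 in OACP4_C, 702 in OE19 and 729 in SK-GT-4. The difference in OE33 was -2.08, and OE19 and SK-GT-4 lay above all other lines without reaching the rule (1.72 and 1.78). SLC7A1 was at 548 CPM in ESO-51 and 461 CPM in SK-GT-4, against 73.8 CPM in OE33, 83.5 in ESO-26, 86.4 in JH_EsoAd1, 98.5 in FLO-1, 154 in OAC_5.1_C, 211 in OE19 and 243 in OACP4_C. It was called high in ESO-51 at 2.14, which became 1.82 when ESO-26, FLO-1, JH_EsoAd1 or OE33 was left out. OE33 was thus the lowest line for SLC3A2, SLC7A5, SLC7A11 and SLC1A5 under TMM, DESeq2 and library size scaling, and for SLC7A1 under TMM and DESeq2, while library size alone put JH_EsoAd1 lowest for SLC7A1.

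SLC1A5, SLC3A2 and SLC7A1 are shown by their promoters because all were lowest in OE33 under TMM and share a motif, so the choice rests on both. RefSeq promoters (build GRCh38.p14, 250 bases before to 50 after a start site) matched 40 of the 55 genes. The C/EBP-ATF response element, to which ATF4 dimers bind, was searched as TGATGNAAN on both strands. It was present in 5 of the 40 genes (SLC1A3, SLC1A4, SLC1A5, SLC3A2 and SLC7A1), against 4.45% of 27305 genes and 3.61% of 35116 promoters in the table. Capitals mark the match, which lies on the strand of the gene in SLC1A5 and SLC7A1 and on the opposite strand in SLC3A2. The windows are chr19:46784765-46785064 on the minus strand for a start site of SLC1A5, chr11:62881449-62881748 on the plus strand for SLC3A2 and chr13:29595639-29595938 on the minus strand for SLC7A1, each read 5′ to 3′ along the gene:
SLC1A5: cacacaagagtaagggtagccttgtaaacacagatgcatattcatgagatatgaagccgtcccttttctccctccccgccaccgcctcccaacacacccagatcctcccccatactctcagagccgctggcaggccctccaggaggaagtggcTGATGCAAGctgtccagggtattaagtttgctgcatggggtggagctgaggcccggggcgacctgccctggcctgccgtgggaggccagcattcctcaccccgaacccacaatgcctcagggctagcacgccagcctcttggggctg
SLC3A2: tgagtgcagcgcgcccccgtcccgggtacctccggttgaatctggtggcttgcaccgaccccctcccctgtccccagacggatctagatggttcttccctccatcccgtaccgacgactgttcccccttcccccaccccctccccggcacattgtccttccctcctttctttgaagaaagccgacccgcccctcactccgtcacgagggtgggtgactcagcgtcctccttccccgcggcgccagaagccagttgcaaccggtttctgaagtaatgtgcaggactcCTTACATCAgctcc
SLC7A1: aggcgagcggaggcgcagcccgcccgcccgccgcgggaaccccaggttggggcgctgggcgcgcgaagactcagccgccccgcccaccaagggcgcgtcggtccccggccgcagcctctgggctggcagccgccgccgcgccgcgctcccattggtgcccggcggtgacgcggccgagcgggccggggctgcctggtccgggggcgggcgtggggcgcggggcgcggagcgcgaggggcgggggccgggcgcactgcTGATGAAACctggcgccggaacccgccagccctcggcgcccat

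The match starts 97 bases before the start site of the window shown for SLC1A5, at base 36 after it in SLC3A2 and at base 7 after it in SLC7A1. Another window of SLC1A5, chr19:46787244-46787543 on the minus strand, lacks these letters. SLC1A3 and SLC1A4, which hold the motif too, did not have OE33 as their lowest line (52.0 and 23.2 CPM there). SLC7A5 and SLC1A1 did have it as their lowest line and have a promoter in the table, without these letters in the window. SLC1A7 and SLC38A5 lack the letters too, but their lowest line cannot be told. Both had 0 counts in OE33, against 1 count in OACP4_C for SLC1A7 and 1 count in SK-GT-4 for SLC38A5. The core of the antioxidant response element, searched as TGACNNNGC on both strands, was present in 7 of the 40 genes (SLC1A3, SLC1A5, SLC3A2, SLC7A1, SLC7A5, SLC7A6 and SLC7A7), against 16.1% of genes in the table. A match describes these letters only, and no binding was measured.

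The remaining cationic carriers of the SLC7 family split the lines. SLC7A2, an arginine and lysine importer, was high in FLO-1 at 119 CPM and low in OE33 (1 count, 0.0377 CPM) and JH_EsoAd1 (10 counts, 0.496 CPM), with 8.13 CPM in ESO-26 to 72.3 CPM in OE19 in the other 6 lines. The counting intervals of OE33 (up to 0.210 CPM) and JH_EsoAd1 (0.238 to 0.912 CPM) do not overlap. SLC7A4, a relative of these importers, was at 19.6 CPM in OAC_5.1_C (interval 18.4 to 20.9), against 0 to 0.579 CPM elsewhere, a gap of 3.71. SLC7A14, a lysosomal relative, had the widest gap of all carriers, 6.33 log2 units. It held 1508 counts or 87.0 CPM in ESO-26 (interval 82.6 to 91.5), against 0 counts in 5 lines, 1 count in FLO-1, 1 in JH_EsoAd1 and 3 in SK-GT-4. ESO-26 is the line with 163 CPM of summed epithelial markers and 3841 CPM of summed mesenchymal markers, most of it FN1, and KRT8P13, a pseudogene that overlaps SLC7A14 on the opposite strand, reached at most 18.7 CPM.

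The SLC1 genes held 4 genes called high and 4 called low among 6 that reached 5 CPM, where 28.7% and 17.1% of all genes were called. SLC1A3, a high-affinity glutamate importer best known from glia, had the widest range of all carriers. It reached 395 CPM in FLO-1, 174 CPM in OAC_5.1_C and 52.0 CPM in OE33, against 14.8 CPM in ESO-26, 14.0 in JH_EsoAd1, 0.880 in OACP4_C, 0.622 in ESO-51, 0.143 in OE19 and 0.0322 in SK-GT-4. The first 3 were called high and the last 4 low, and the difference of 3.32 in OE33 became 1.82, no longer a call, when ESO-51, OACP4_C, OE19 or SK-GT-4 was left out. All 4 low calls were lost with a pseudocount of 5 (differences of -1.95 to -1.72). SLC1A1, the glutamate and cysteine importer of neurons and of kidney and intestine, was ordered otherwise. It stood at 59.1 CPM in FLO-1, 57.7 in OE19 and 35.2 in ESO-51, against 7.52 CPM in SK-GT-4, 2.63 in JH_EsoAd1, 1.28 in OAC_5.1_C, 0.759 in OACP4_C, 0.577 in ESO-26 and 0.0754 in OE33. The low call of OE33 (-2.37) became -1.75 when ESO-51, FLO-1, OE19 or SK-GT-4 was left out and -0.95 with a pseudocount of 5, and it was lost as well under library size scaling. FLO-1 was the only line called high for both genes, and the values of FLO-1 and OE19 for SLC1A1 lie within each other's counting intervals.

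SLC1A4, an exchanger of serine, alanine and cysteine, was low in 3 lines, at 3.98 CPM in ESO-26, 7.30 CPM in OACP4_C and 7.84 CPM in OE19, against 23.2 CPM in OE33 to 90.4 CPM in ESO-51. With a pseudocount of 5 the call in ESO-26 held, and those in OACP4_C and OE19 did not (-1.94 and -1.87). SLC1A7, a glutamate carrier of the retina, was at 10.7 CPM in OE19 and 5.58 CPM in OAC_5.1_C, against 0 to 1.58 CPM elsewhere. SLC1A6, a glutamate carrier of cerebellar Purkinje cells, was at 5.20 CPM in OE33 (138 counts), against 1 line with 0.0356 CPM and 0 counts in the other 7. Neither SLC1A7 (1.64 and 1.07) nor SLC1A6 (1.03) was called with a pseudocount of 5.

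In the SLC6 family, the imino acid carrier SLC6A20 and the neutral amino acid carrier SLC6A19 belong to the absorptive brush border. SLC6A20 stood at 152 CPM in OE19 (interval 147 to 157), against 14.5 CPM in SK-GT-4, 8.18 in OE33, 5.96 in ESO-51, 2.68 in OAC_5.1_C, 1.48 in OACP4_C, 0.947 in FLO-1, 0.198 in JH_EsoAd1 and 0.173 in ESO-26. The gap of OE19 to the next line was 3.31, and SK-GT-4 was called high as well, a call lost with a pseudocount of 5 (1.46). SLC6A19 stood at 8.17 CPM in SK-GT-4 (254 counts, interval 7.19 to 9.23), against 1.27 CPM in ESO-51 and 0 to 0.373 CPM in the others. Its gap of 2.02 was lost under library size scaling and with a pseudocount of 5, where the difference of 3.16 also became 1.39. It was lost with FPKM too, where it was at 0.631 FPKM in SK-GT-4, under the same minimum of 5. Deposited FPKM likewise lost the gaps of SLC1A6, SLC3A1, SLC38A3, SLC7A4, SLC7A9 and SLC7A10 and the low gap of SLC7A11. Rescaled FPKM lost those of SLC7A7 and SLC7A14 as well.

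Of the 9 monoamine, GABA and osmolyte carriers of the same family, SLC6A8 and SLC6A6 alone reached 5 CPM, and both did so in every line. SLC6A8, the creatine importer, was high in OE19 at 344 CPM and low in OAC_5.1_C at 13.7 CPM, with 17.4 CPM in JH_EsoAd1 to 150 CPM in OACP4_C in the other 7 lines. Its pseudogene copy SLC6A10P was at 0.198 to 7.88 CPM, so reads may be divided between them. SLC6A6, the taurine importer, ranged from 31.2 CPM in ESO-51 to 208 CPM in OE19 and was not called. SLC6A9, the glycine importer, ranged from 8.18 CPM in JH_EsoAd1 to 36.6 CPM in SK-GT-4 and was not called either.

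The SLC38 genes left after the rule encode glutamine carriers and lysosomal members. SLC38A5, a carrier of glutamine, asparagine and serine, was at 116 CPM in ESO-26 and 36.4 CPM in OE19, against 0 CPM in OE33 to 0.467 CPM in FLO-1. SLC38A3, the glutamine carrier of liver and kidney, was at 34.2 CPM in ESO-51, against 1.66 CPM in OE33, 1.25 in FLO-1, 1.04 in JH_EsoAd1 and 0 counts in the other 5 lines. SLC38A3 was thus called in ESO-51 alone. SLC38A9, the lysosomal arginine sensor of mTORC1, ranged from 8.68 CPM in SK-GT-4 to 32.2 CPM in FLO-1, and SLC38A10 from 75.6 CPM in OE19 to 187 CPM in OE33. Neither was called in a line. SLC38A1, SLC38A2 and SLC38A4, which are not among the 55 genes, were at 0.675, 0.386 and 0 CPM in SK-GT-4. In the other 8 lines they were at 196 to 2643 CPM, 277 to 1489 CPM and 0.679 to 25.5 CPM.

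SLC36A4, a high-affinity carrier of proline and tryptophan, was high in OAC_5.1_C at 111 CPM and low in OACP4_C at 4.14 CPM and OE19 at 2.42 CPM, with 17.0 CPM in SK-GT-4 to 39.5 CPM in JH_EsoAd1 in the other 6 lines. The difference of -2.14 in OACP4_C became -1.94 when ESO-26, ESO-51, JH_EsoAd1 or OAC_5.1_C was left out, and with a pseudocount of 5 both low calls were lost (-1.54 in OACP4_C and -1.84 in OE19). SLC36A1, its lysosomal relative for proline and alanine, ranged only from 5.32 CPM in FLO-1 to 13.8 CPM in OE19. Each of the 3 SLC43 genes had a high call in some line, where 28.7% of all genes did. SLC43A1, a facilitator of leucine and phenylalanine, was high in ESO-51 at 73.4 CPM and low in FLO-1 at 1.31 CPM, OAC_5.1_C at 4.96 CPM and ESO-26 at 5.36 CPM, with 12.4 CPM in JH_EsoAd1 to 51.4 CPM in SK-GT-4 in the rest. Without ESO-51, OACP4_C, OE19 or SK-GT-4 the low differences became -1.72 in ESO-26 and -1.82 in OAC_5.1_C. Without ESO-26, FLO-1, JH_EsoAd1 or OAC_5.1_C the high one in ESO-51 became 1.82, and the call in FLO-1 held in each case. With a pseudocount of 5 the call in FLO-1 alone was kept.

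SLC43A2, the second facilitator of this kind, was at 90.8 CPM in OE33, against 3.00 CPM in OAC_5.1_C to 23.9 CPM in ESO-51. OE33 thus had the highest level of this system L gene and the lowest of SLC7A5. SLC43A3, which carries purine nucleobases, was at 67.0 CPM in FLO-1, 38.1 in OAC_5.1_C and 16.0 in OE19, against 0 CPM in ESO-26 and ESO-51 to 3.33 CPM in OACP4_C. The call in OE19 was lost with a pseudocount of 5 (1.80). It overlaps a read-through gene on its own strand, and counts that assign shared reads differently put it at 110 CPM in FLO-1 in place of 67.0 CPM. SLC43A1 and SLC43A3 lie on chromosome 11 with RTN4RL2 between them. FLO-1 and OAC_5.1_C were high for SLC43A3 and low for SLC43A1. However, OE19, also high for SLC43A3, had SLC43A1 at 31.3 CPM, and ESO-26, also low for SLC43A1, had SLC43A3 at 0 CPM. A relation between these genes was not tested.

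Counted by line, the calls fell unevenly, but the high calls of the 8 genes at 5 CPM in a single line follow largely from that minimum. These are SLC38A3, SLC7A9 and SLC3A1 in ESO-51, and SLC7A10 and SLC1A6 in OE33. The others are SLC7A4 in OAC_5.1_C, SLC6A19 in SK-GT-4 and SLC7A14 in ESO-26. In OE19 7 of the 35 carriers were high (20%, all genes 4.60%), namely SLC6A20, SLC6A8, SLC38A5, SLC1A1, SLC43A3, SLC1A7 and SLC7A8, and 3 were low (SLC1A3, SLC1A4 and SLC36A4, all genes 4.47%). In ESO-51 7 were high (all genes 4.44%), namely SLC7A1, SLC43A1, SLC1A1, SLC38A3, SLC7A9, SLC3A1 and SLC7A8, and SLC1A3 alone was low (all genes 3.37%). OAC_5.1_C had 6 high (17.1%, all genes 5.73%), namely SLC1A3, SLC36A4, SLC43A3, SLC7A7, SLC7A4 and SLC1A7, and 2 low (SLC6A8 and SLC43A1, all genes 1.75%). Only SLC1A1 and SLC7A8 were shared by the sets of OE19 and ESO-51.

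OE33 had the most low calls, 5 of 35 (14.3%, all genes 5.24%), which were SLC7A11, SLC7A2, SLC7A5, SLC1A1 and SLC1A5, and 4 high ones (SLC43A2, SLC1A3, SLC7A10 and SLC1A6, all genes 5.54%). FLO-1 had 4 high (SLC1A3, SLC7A2, SLC43A3 and SLC1A1, all genes 6.19%) and SLC43A1 low (all genes 1.21%). SK-GT-4 had 3 high (SLC7A7, SLC6A20 and SLC6A19, all genes 5.74%) and SLC1A3 low (all genes 3.91%). ESO-26 had 2 high (SLC38A5 and SLC7A14, all genes 4.81%) and 2 low (SLC1A4 and SLC43A1, all genes 7.98%), shares near or under the background. OACP4_C had 0 high (all genes 4.00%) and 3 low, the same 3 genes as OE19 (all genes 1.92%), and JH_EsoAd1 had 0 high (all genes 4.95%) and SLC7A2 low (all genes 1.41%). The median difference of the 35 carriers ran from -0.25 in ESO-26 to 0.41 in ESO-51, against -0.02 to 0.03 over all genes.

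**Figure D4:**
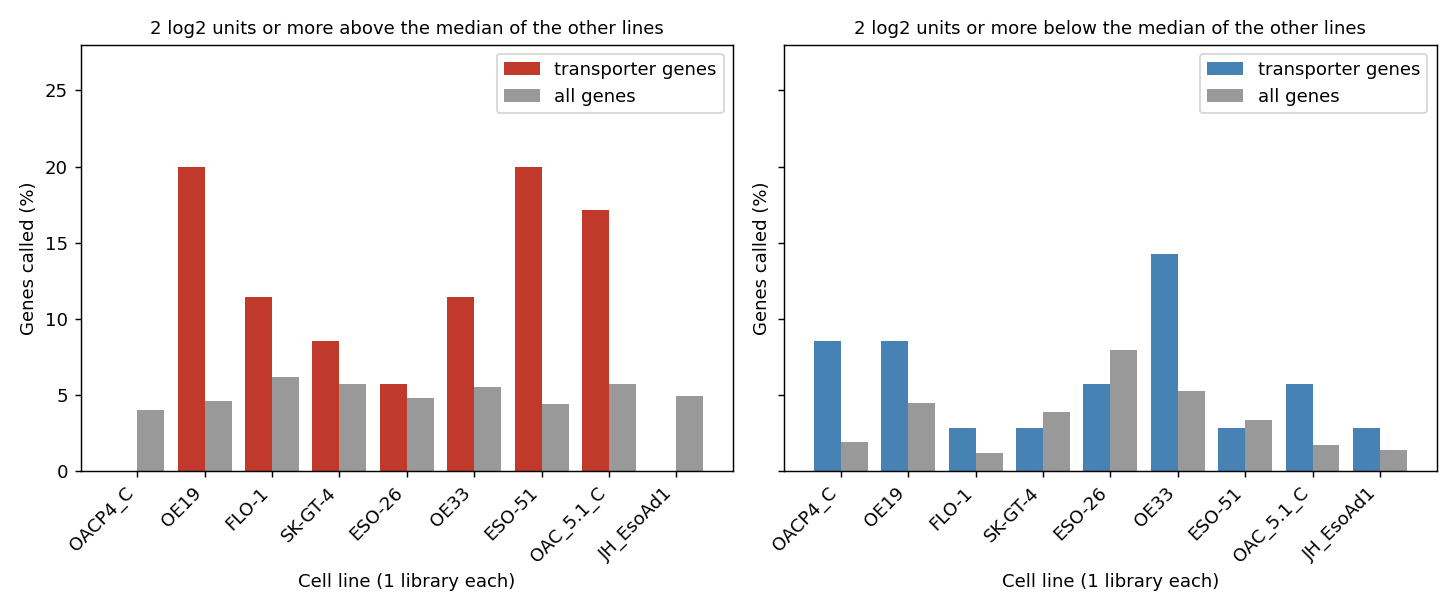
Share of genes called in each line (vertical axis, percent) at least 2 log2 units above (left panel) or below (right panel) the median of the other 8 lines, for the 35 carrier genes (coloured bars) and for all 14580 genes at 5 CPM in at least 1 line (grey bars). The carrier bars are tallest at 20% high in OE19 and ESO-51 and at 14.3% low in OE33. High bars include the 8 genes at 5 CPM in a single line, whose calls follow largely from that minimum.

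The 9 carriers called in neither direction were SLC3A2, SLC6A6, SLC6A9, SLC7A6, SLC36A1, SLC38A6, SLC38A7, SLC38A9 and SLC38A10. Among all genes 62.4% were called in neither direction. Of these 9, SLC36A1, SLC38A7 and SLC38A9 act at the lysosome, and all 9 except SLC38A6 reached 5 CPM in every line.

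Genes of the amino acid response were read beside the carriers from a list of 14, all of which reached 5 CPM in some line. Over the 126 gene and line pairs 11.9% were high and 8.73% low, against 5.11% and 3.47% of pairs over all genes. With a pseudocount of 5, calls over this list and those below together fell from 29 high and 19 low to 17 and 7. The lost calls were not traced to genes. ESO-51 had 5 of the 14 high (DDIT3, CHAC1, SESN2, NUPR1 and CTH, all genes 4.44%), OE19 had 4 high (CHAC1, CEBPB, NUPR1 and VLDLR, all genes 4.60%), and OACP4_C had 2 (TRIB3 and CHAC1, all genes 4.00%), with 0 low in these 3 lines. SK-GT-4 had CHAC1 and STC2 high and CTH low, FLO-1 had TRIB3, SESN2 and VLDLR low, ESO-26 had TRIB3 and VLDLR low, and OAC_5.1_C had none. The median difference of the list was 1.54 in OE19, 1.04 in OACP4_C and 1.0 in ESO-51, against -0.89 in OAC_5.1_C, -0.78 in JH_EsoAd1, -0.74 in ESO-26, -0.59 in OE33, -0.29 in FLO-1 and 0.26 in SK-GT-4. In OE33, where 5 carriers were low, TRIB3 and ASNS were low and NUPR1 (16.0 CPM) and STC2 (13.4 CPM) high. Calls at such levels may not hold with a pseudocount of 5. In JH_EsoAd1 TRIB3, ASNS and CTH were low. ASNS, the asparagine synthetase, stood at 62.0 CPM in OE33, against 67.1 CPM in JH_EsoAd1, 82.6 in OAC_5.1_C, 164 in FLO-1, 238 in ESO-26, 378 in OE19, 384 in ESO-51, 454 in SK-GT-4 and 468 in OACP4_C. Library size scaling alone put JH_EsoAd1 below OE33 for ASNS.

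In the 4 lists of glutathione, serine and proline, glutamine and sensing genes, 1.11% to 2.78% of gene and line pairs were high and 0% to 1.39% low, under the 5.11% and 3.47% of all genes. Of 10 genes of glutathione synthesis and use, only GGT1 in SK-GT-4 was called (118 CPM, high), and none in OE33, where SLC7A11 was at 3.58 CPM. TXNRD1 was nevertheless highest in OE33, at 1869 CPM against 293 to 1083 CPM in the other lines. The median difference of the list in OE33 was -0.45. Of 9 genes of serine and proline synthesis, PSAT1 was high in SK-GT-4 (558 CPM) and PYCR1 low in OAC_5.1_C (29.5 CPM). Of 8 glutamine and glutamate enzymes, the glutamine synthetase GLUL was high in FLO-1 (593 CPM) and low in OE19 (3.67 CPM), and GPT was high in OE19. Among 16 genes of amino acid sensing, RRAGD was high in OE33 (80.6 CPM), SESN3 high in ESO-26 and low in OE19 and OE33, and SESN1 high in ESO-51. The 5 absorption partners had 7 high and 4 low calls in 45 pairs (15.6% and 8.89%). Among them, the peptide carrier SLC15A1 was high in SK-GT-4 (62.1 CPM), OE19 (26.8 CPM), OAC_5.1_C (23.3 CPM) and ESO-51 (18.3 CPM). It was low in FLO-1, ESO-26, OE33 and JH_EsoAd1. SLC15A1 thus gave 4 of the 7 high calls and all 4 low ones, so these shares largely describe 1 gene. ANPEP, a brush border peptidase, was high in OE33 (165 CPM). CLTRN, the kidney partner of SLC6A19, was high in OAC_5.1_C (23.3 CPM), and SLC16A10 in ESO-51 (6.83 CPM). As for the amino acid response, list calls at low levels, those of SLC15A1 included, may not hold with a pseudocount of 5.

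Over the 9 libraries, SLC7A11 and ASNS had a Pearson r of 0.778 and a Spearman rho of 0.767 on log2(CPM + 1), and r was 0.678 without OE33 and OAC_5.1_C, the libraries farthest from the median of SLC7A11. SLC3A2 and SLC7A5 had r = 0.812 and rho = 0.633, but r = 0.356 without OE33 and ESO-26, so much of the value rests on those libraries. SLC3A2 and SLC7A11 had r = 0.631 and rho = 0.150, and r = 0.0110 without OE33 and ESO-26. SLC3A1 and SLC7A9 had r = 0.864 and rho = -0.150, and r = -0.730 without ESO-51 and OAC_5.1_C, so the positive value rests on those libraries. ESO-51 was the only line at 5 CPM for either gene. SLC7A9 was at 0 to 0.943 CPM elsewhere, so the negative values order lines near the floor and cannot be read as a relation. SLC1A5 and SLC7A5 had r = 0.0982 and rho = -0.333, and r = -0.745 without OE33 and SK-GT-4. SLC7A11 and the glutathione synthesis gene GCLM had r = 0.0217 and rho = 0.0167, and r = -0.224 without OE33 and OAC_5.1_C. The values of these 6 pairs describe 9 libraries that share their processing and scaling, and are given with no p-value.

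**Figure D5:**
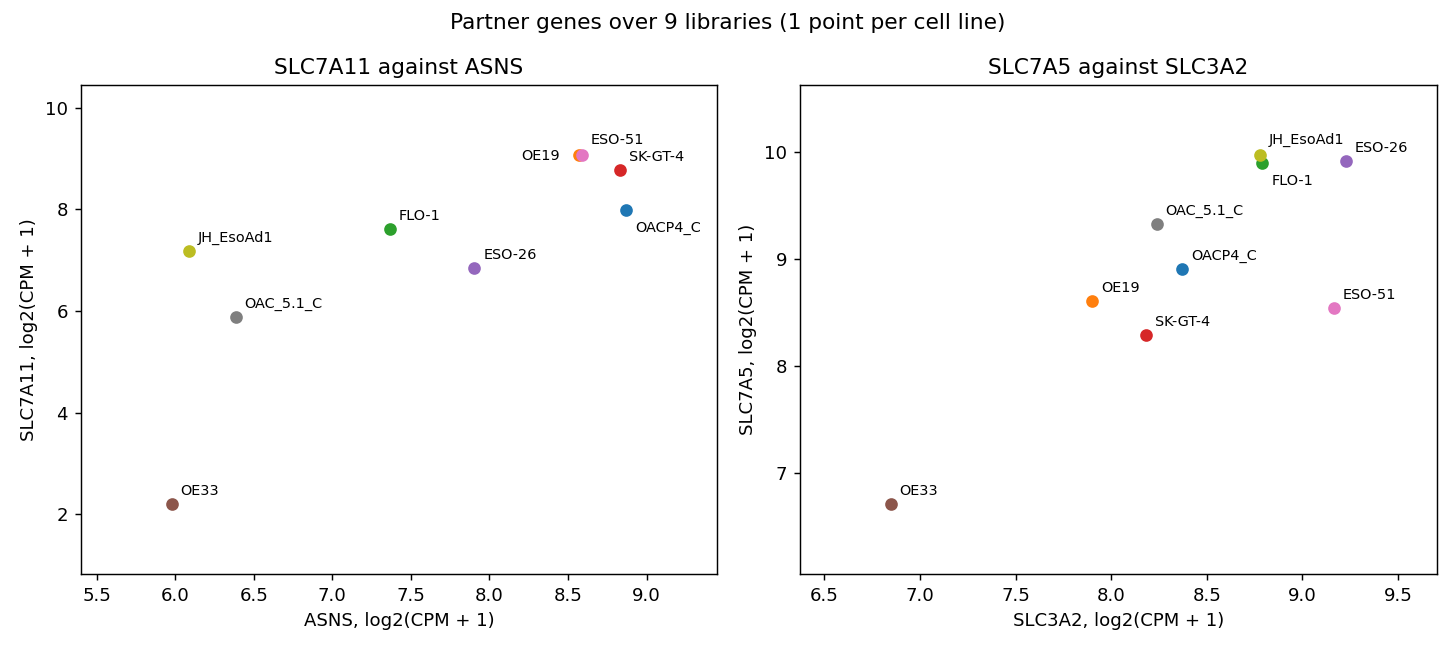
Level of SLC7A11 against ASNS (left panel) and of SLC7A5 against SLC3A2 (right panel), both axes as log2(CPM + 1), with 1 labelled point per cell line. OE33 is the lowest point on both axes of each panel under TMM scaling (library size alone puts JH_EsoAd1 lowest for ASNS), and without it and OAC_5.1_C or ESO-26 the Pearson r is 0.678 on the left and 0.356 on the right.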

How the data were processed

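RNA from 9 untreated cell lines was sequenced, and libraries followed Illumina protocols, per the labels. The submitters' processing notes name GRCh37 as the build and FastQC 0.11.7, R 3.6.1 and STAR 2.6.1d as tools; the counting program, its strand setting, and how the technical replicates of a line entered its single column are not stated in any source used here. If those replicates were summed, the Poisson intervals still cover counting error only. The deposited table holds raw counts per gene, per the file headers and values, and 1 blank row with 0.00485% to 0.00965% of counts was left out. The authors' deposited FPKM, per the file headers, is per gene length. Its totals include counts outside the table, so it was not used between lines except as an alternative.

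Counts were scaled with TMM (edgeR 4.0.16 in R 4.3.3) on 17163 genes at 1 CPM in at least 2 libraries, with factors from 0.831 (JH_EsoAd1) to 1.11 (ESO-51). Relative to TMM, library size alone shifts the median gene by -0.27 (JH_EsoAd1) to 0.14 (ESO-51) log2 units, and DESeq2 1.42.0 size factors by -0.06 to 0.03. Other steps used Python 3.11.15. With 1 library a line no test between lines was made, and rules of size on log2(CPM + 1) stood in for one. They were run on simulated counts with Poisson error only, where the changes set lay well above or below the cut-off. Such a run checks the arithmetic of the rules and cannot show how they act on variation between lines or near 5 CPM.

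The genes and lists were chosen with earlier results of these data known. Named genes are those with a gap to every other line, the 20 with the largest range, the heteromeric subunits and SLC1A5, and the top gene by FPKM of each family. Others, such as SLC7A1, SLC1A7 and those called in neither direction, were named after their values were seen. Alternatives were other scalings, a pseudocount of 5, a minimum of 1 CPM, FPKM, leaving out each line, and, chosen after seeing the data, leaving out pairs of lines and counts with another overlap rule. Promoters for 15 of the 55 genes were not used here. A few genes and relations are not reported here.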

Additional observations from a re-analysis of the deposited data

How the results depend on the processing

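Of the carriers, 33 gene and line pairs were high and 19 low by the median rule, 10 high and 1 low by the gap rule, and the comparison lists had 29 high and 19 low. DESeq2 size factors gave the same counts, and counts with another overlap rule did so for the carriers. Library size alone gave 33, 20, 9 and 1, and a minimum of 1 CPM 35, 21, 10 and 1. A pseudocount of 5, which shrinks differences at low levels, gave 22 high and 8 low, gaps of 6 and 1, and 17 high and 7 low list genes. Deposited FPKM, with only 17 carriers at the minimum of 5, gave 11, 5, 3 and 0. Rescaling FPKM to equal library sums gave 10, 2, 1 and 0. Leaving out each line gave 27 to 35 high, 13 to 21 low, 8 to 12 high gaps and 1 to 2 low gaps, the second being SLC36A4 in OE19 without OACP4_C or SLC7A2 in OE33 without JH_EsoAd1. Without ESO-26 and OE33, whose epithelial markers are low, the counts were 26, 17, 8 and 1, and without OE19 and SK-GT-4 they were 25, 12, 11 and 1. In the relations, leaving out ESO-26 and OE33 gave 0.356 for SLC3A2 with SLC7A5, 0.0110 for SLC3A2 with SLC7A11 and -0.786 for SLC1A5 with SLC7A5. Leaving out OE19 and SK-GT-4 gave 0.890 for SLC3A2 with SLC7A11 and 0.505 for SLC1A5 with SLC7A5. For 26 named carriers, 364 differences were recomputed, of which 181 stayed within the counting interval, 183 moved beyond it and 0 changed sign. A minimum of 1 CPM cannot alter a difference, so its values are among the 181 by design. A change of sign was counted only for carriers with a call, which leaves out SLC3A2 and SLC38A10. The cause of these shifts was not tested. The main limit is 1 library a line, so that differences between lines have no replicate error, and levels near the floor of 3 counts cannot be ordered. No paired analysis was possible because each line has a single column and no test was made.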
